A study of Mus musculus with 4 samples.

Results

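The genes described here were 35 genes of 2 linked groups, out of 32285 genes in the count tables. They were taken from a written list and matched by gene symbol. The glycolysis group of 17 genes held the glucose transporter gene Slc2a1, the hexokinase genes Hk1 and Hk2, and the genes from Gpi1 to Ldha that carry glucose 6-phosphate to lactate. The hypoxia group of 18 genes held targets of hypoxia-inducible factor together with Hif1a, the gene for its oxygen-regulated subunit. All 35 were annotated as protein-coding in GENCODE.

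The libraries were single-cell 3′ RNA libraries of islets taken from wild-type C57BL/6 mice and from MALAT1-/- mice, whose strain is also given as C57BL/6. Malat1 is a long nuclear noncoding RNA. The islets were freed with collagenase, cultured in RPMI medium with 10% serum, exposed to the dioxin TCDD and dissociated with Accutase. Both groups had received TCDD, so nothing below separates its effect. The libraries given DMSO alone were left out of this work. The age and sex of the mice, the number of animals pooled, and the dose and time of TCDD were not given in the sources used here. Each genotype was 1 library, so a difference below is between these libraries, has no replicate check and carries no test. Intervals cover counting error only.

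Glycolysis turns glucose into pyruvate, and in most tissues lactate dehydrogenase A and a lactate exporter let it run without oxygen. Beta cells are known to keep Ldha, the low-Km hexokinases and monocarboxylate transporters very low, so that pyruvate enters the mitochondria and glucose controls insulin release. Hypoxia-inducible factor is a pair of subunits, one of which is marked for destruction by oxygen-dependent prolyl hydroxylases such as those encoded by Egln1 and Egln3. When oxygen is short the factor binds DNA at the letters ACGTG or GCGTG and raises glycolytic genes, Pdk1, Bnip3, Egln3, Adm and others. The letters GCGTG are also the core that the dioxin receptor AhR binds, with the same partner, Arnt.

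Promoters of 5 genes that recur in the results are shown for these letters. Each is the 250 bases before the RefSeq start in GRCm38.p6, 5′ to 3′ on the gene's strand, and capitals mark ACGTG or GCGTG on either strand, so that CACGT and CACGC count as well. They are Pgk1 (chrX:106186850-106187099, plus strand), the first Ldha start (chr7:46845554-46845803, plus strand), Bnip3 (chr7:138909507-138909756, minus strand), Fam162a (chr16:36071562-36071811, minus strand) and P4ha1 (chr10:59323046-59323295, plus strand).
Pgk1: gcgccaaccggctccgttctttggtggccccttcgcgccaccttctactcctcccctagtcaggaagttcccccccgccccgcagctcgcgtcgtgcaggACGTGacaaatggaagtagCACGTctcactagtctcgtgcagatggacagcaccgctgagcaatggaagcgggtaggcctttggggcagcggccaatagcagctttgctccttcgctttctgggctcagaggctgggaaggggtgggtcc
Ldha: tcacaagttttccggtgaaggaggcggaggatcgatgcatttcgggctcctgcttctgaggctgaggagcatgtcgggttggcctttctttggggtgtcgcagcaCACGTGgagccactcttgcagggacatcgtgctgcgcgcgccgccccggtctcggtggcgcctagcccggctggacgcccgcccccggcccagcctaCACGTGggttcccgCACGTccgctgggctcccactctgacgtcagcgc
Bnip3: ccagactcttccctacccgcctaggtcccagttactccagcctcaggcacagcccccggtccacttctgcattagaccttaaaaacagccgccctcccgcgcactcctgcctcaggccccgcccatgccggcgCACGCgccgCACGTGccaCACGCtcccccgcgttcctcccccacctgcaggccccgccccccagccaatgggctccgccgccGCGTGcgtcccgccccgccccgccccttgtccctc
Fam162a: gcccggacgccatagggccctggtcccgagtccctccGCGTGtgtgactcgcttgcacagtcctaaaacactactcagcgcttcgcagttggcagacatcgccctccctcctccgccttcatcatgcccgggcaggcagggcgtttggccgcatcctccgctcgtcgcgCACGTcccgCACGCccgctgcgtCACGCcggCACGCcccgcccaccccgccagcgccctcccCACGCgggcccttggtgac
P4ha1: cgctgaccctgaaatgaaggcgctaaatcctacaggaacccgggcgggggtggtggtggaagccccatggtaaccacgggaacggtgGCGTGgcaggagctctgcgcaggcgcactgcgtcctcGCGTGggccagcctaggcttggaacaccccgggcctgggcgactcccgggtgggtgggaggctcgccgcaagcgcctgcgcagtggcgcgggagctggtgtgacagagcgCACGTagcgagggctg

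These stretches hold 2 matches for Pgk1, 5 for Ldha, 5 for Bnip3, 6 for Fam162a and 3 for P4ha1, with overlapping matches counted each. They do not stand for all genes described below. Gpi1, Tpi1 and Mif, also lower in Malat1-null beta-like cells, had 0 matches in the same 250 bases, and the second Ldha start had 1. RefSeq windows from 250 bases before to 50 after a start were found for 33 of the 35 genes, in 47 windows. Bnip3l and Ndrg1 were not matched, and Ero1l was matched through the symbol Ero1a. At least 1 match stood in 37 of the 47 windows (78.7%), against 43.8% of all 32851 promoters and 62.9% of the 9493 promoters with a GC content between 56.3% and 69.0%. At least 2 matches stood in 29 windows (61.7%), against 20.6% of all promoters and 34.0% of those in that GC range. Genes lower in Malat1-null beta-like cells had at least 1 match in 14 of 17 windows, and the other listed genes in 23 of 30. Windows of a gene with several starts could overlap and share matches, as for Aldoa and Eno1. The median GC content was 64.7% for the listed genes and 52.7% for all promoters. Since most of the hypoxia group was listed as factor targets, these shares describe the list and are no result of the libraries. A match is a run of letters, not a bound site.

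The matrices held 81872519 UMIs (unique molecules counted) in the wild-type library and 134950186 in the Malat1-null library, and 2166 and 3198 barcodes with at least 1000 UMIs were kept as cells, with 1 barcode in both. Their median depth was 26116 and 34038 UMIs. Clusters were named from lists of marker genes, and the 35 genes did not enter the clustering. The submitters label all cells as beta cells, yet only 908 wild-type cells (41.9%) and 1767 Malat1-null cells (55.3%) were beta-like, with median depths of 61418.5 and 48329 UMIs. The other named classes were B cell-like (181 and 262 cells), T or NK-like (296 and 157), acinar-like (275 and 50), ductal-like (140 and 21), endothelial-like (89 and 40), alpha-like (32 and 67), PP-like (28 and 16), mesenchymal-like (25 and 17) and erythroid-like (13 and 153). In all, 179 wild-type cells (8.26%) and 648 Malat1-null cells (20.3%) stayed unnamed. Among them were insulin-rich clusters led by Gcg (12 and 66 cells) and by Ppy (7 and 46 cells), which are not in the beta-like class. A cluster led by Sst stayed unnamed because it also held other hormones (28 and 60 cells), and it is the only unnamed cluster with levels below. No level is given for the erythroid-like cells, which had too few UMIs. Of the alpha-like cells, 52 of the 67 Malat1-null ones came from a cluster with no wild-type cell. In beta-like cells Malat1 stood at 15343 CPM (wild type) and 0.499 CPM (Malat1-null). CPM here are the UMIs of a gene relative to all UMIs of a class in a library, after TMM scaling between classes and libraries. A gene counted as measured if either library reached 20 CPM and the libraries together held 50 UMIs or more, and as lower or higher when the libraries differed by more than 1.5-fold with an interval that left out 1.

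In beta-like cells 23 of the 35 genes were measured, and 14 of them were lower in the Malat1-null library and 0 higher. By the same rule 2.09% of all 5849 measured genes were lower and 1.78% higher. The median difference of the 23 genes was -0.65 on the log2 scale, against 0.03 for all measured genes, and 22 of the 23 had a ratio below 1. In the glycolysis group 7 of 11 measured genes were lower (median -0.76), and in the hypoxia group 7 of 12 (median -0.65). The summed level was 3724 CPM in the wild-type and 2444 CPM in the Malat1-null library for the glycolysis group, and 1625 and 891 CPM for the hypoxia group. That both groups are lower in these libraries was known when the list was made, so the counts are a description and not independent support. In sums over a class, fewer cells with a transcript and less transcript per cell cannot be told apart.

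**Figure D1:**
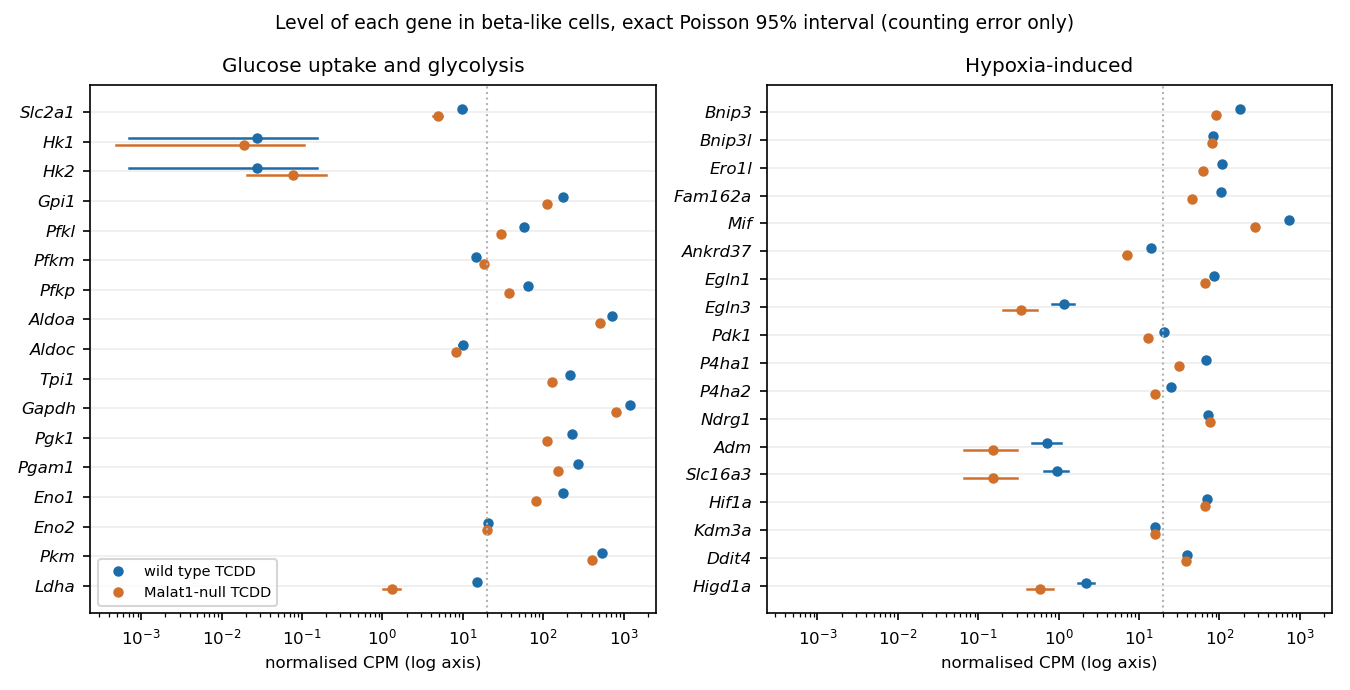
Level of each gene in beta-like cells of the wild-type and Malat1-null TCDD libraries, as normalised CPM on a log axis with exact Poisson 95% intervals; glycolysis genes on the left, hypoxia-induced genes on the right, and a dotted line at 20 CPM. The Malat1-null point lies left of the wild-type point for most genes, and Eno2, Bnip3l, Ndrg1, Hif1a, Kdm3a and Ddit4 lie nearly on top of each other.

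The steps of glycolysis were not lowered to the same degree. Gpi1, which turns glucose 6-phosphate into fructose 6-phosphate, stood at 176 CPM and 112 CPM, wild-type value first here and below, a ratio of 0.638 (interval 0.615 to 0.661). Of the phosphofructokinase genes, whose enzyme makes the committed step, Pfkl went from 57.3 to 29.9 CPM and Pfkp from 65.7 to 37.8 CPM. The muscle form Pfkm stayed under the minimum and went the other way, from 14.6 to 18.4 CPM, with an interval of the ratio from 1.13 to 1.4.

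Aldoa, which splits the 6-carbon sugar, was at 724 and 515 CPM and missed the rule at a ratio of 0.711. Below it in the pathway, the triose isomerase gene Tpi1 went from 218 to 128 CPM. Gapdh, the oxidising step and a common reference gene, was at 1196 and 814 CPM, a ratio of 0.680 that also missed the rule. These values place Aldoa and Gapdh, with Pkm, among the less changed steps.

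Eno1 and Pgk1 had the lowest ratios of the measured glycolysis genes. Pfkl from the upper stretch came next, ahead of Pgam1, so the differences did not follow the order of the steps. Pgk1, the first step that yields ATP, went from 227 to 112 CPM (2.02-fold lower, interval 1.95 to 2.09). Pgam1, which moves the phosphate within phosphoglycerate, went from 269 to 155 CPM. Eno1, the main enolase outside nerve and muscle, went from 176 to 82.1 CPM (2.15-fold lower, interval 2.07 to 2.23). Its neuronal relative Eno2 did not go with it, at 20.8 and 20.1 CPM with a ratio between 0.878 and 1.06. Pkm, which makes pyruvate, was at 545 and 404 CPM, a ratio of 0.742. Reads of Eno1 can be shared with the near-identical Eno1b, which held 6.66 and 2.44 CPM.

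In the hypoxia group Mif had the lowest ratio. This gene, for a secreted cytokine with tautomerase activity, went from 736 to 278 CPM (2.65-fold lower, interval 2.60 to 2.70) and stood 29th from the lowest of the 5849 genes. Fam162a, a mitochondrial protein gene, went from 105 to 46.3 CPM. P4ha1, the catalytic subunit of collagen prolyl hydroxylase, went from 67.6 to 31.4 CPM, and its relative P4ha2 went from 24.7 to 15.8 CPM. Bnip3, a receptor that sends mitochondria to autophagy, went from 179 to 91 CPM, whereas its relative Bnip3l, with the same role, was at 82.5 and 81.8 CPM. So within the enolase and the Bnip3 pairs 1 gene met the rule and the other differed by less than 1.1-fold.

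Ero1l, the oxidase that drives disulfide formation in the endoplasmic reticulum, went from 107 to 62.2 CPM. Pdk1, which shuts pyruvate dehydrogenase by phosphorylation, went from 20.3 to 12.9 CPM and only just reached the minimum level. The oxygen sensor gene Egln1 was at 85.8 and 65.7 CPM and missed the rule. Hif1a itself was at 71.2 and 66.9 CPM. The stress genes Ndrg1 (71.5 and 77.0 CPM) and Ddit4 (39.3 and 38.5 CPM) also stayed within 1.1-fold.

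The remaining 12 genes were under the minimum in beta-like cells. For Ldha 543 and 69 UMIs were counted, or 15.1 and 1.32 CPM (11.4-fold lower, interval 8.84 to 14.8). Hk1 and Hk2 had between 1 and 4 UMIs in each library. The induced sensor Egln3 (1.17 and 0.346 CPM), the peptide gene Adm (0.721 and 0.154), the lactate exporter Slc16a3 (0.943 and 0.154) and the mitochondrial gene Higd1a (2.19 and 0.595) were each below 3 CPM. Slc2a1 was at 9.90 and 4.90 CPM, Ankrd37 at 14.2 and 7.07, Aldoc at 10.0 and 8.26, and the histone demethylase gene Kdm3a at 15.9 and 15.8.

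Free RNA moved in the same direction. In droplets with 10 to 100 UMIs, taken as empty, 21 of the 23 genes measured in beta-like cells had a ratio below 1, with a median ratio of 0.783 against 1.03 for 5528 genes. With at least 50 UMIs in empty droplets of both libraries together, 6 of 20 such genes were at least 1.5-fold lower in the Malat1-null library, against 9.93% of the 5528 genes. Of the genes lower in beta-like cells it was 5 of 12. Ldha was at 92.8 and 46.3 CPM and Higd1a at 47.5 and 10.0 CPM in empty droplets, above their levels in beta-like cells, and so were Hk1, Hk2, Adm and Slc16a3 in both libraries. How much of the beta-like values of these 6 genes came from free RNA was not measured. The part of free RNA in the other results was not tested.

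Few genes next to the pathway were called, and with 2.09% of all genes lower and 1.78% higher such small lists would hold few in any case. Of 26 other targets of the factor, 8 were measured, 0 were lower and 1 was higher, namely Nfil3 (34.5 and 66.2 CPM). Vegfa, the growth factor that hypoxia induces in many tissues, was at 309 and 291 CPM. Of 12 genes of the factor's machinery 6 were measured and 0 were called. Of 16 genes of the citric acid cycle all 16 were measured and 0 were called. In the list for glucose entry Slc2a2, the main glucose transporter of mouse beta cells, was higher (62.1 and 174 CPM), and in the list for pyruvate use Pcx, pyruvate carboxylase, was higher (34.0 and 54.0 CPM).

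The difference was not even across beta-like clusters. In the cluster led by Pdyn, the prodynorphin gene, the summed glycolysis level was 4281 CPM in 358 wild-type cells and 2365 CPM in 517 Malat1-null cells, a ratio of 0.552, and that of the hypoxia group was 0.444. In the cluster led by Slc2a2 the ratios were 0.837 and 0.724, over 76 and 532 cells, and 4 genes met the rule for lower. All 6 clusters with cells of both libraries had ratios below 1 for both groups, with glycolysis ratios from 0.552 to 0.837. The libraries also differ in how beta-like cells fall into these clusters. Malat1-null cells were mostly in the clusters led by Slc2a2, Pdyn and Igf1r, and wild-type cells in those led by Pdyn and Snhg11. In the cluster led by Igf1r, with 62 and 360 cells, 5 genes were lower. The share of all genes lower within a single cluster is not given here, so nothing is read from the gene counts of single clusters.

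Across the cell classes the listed genes were mostly not beta-cell genes. T or NK-like cells had the highest level of 15 of the 35 genes in the wild-type library and of 11 in the Malat1-null library. The PP-like cells had the lowest level of 14 and 9 genes. Beta-like cells ranked first for 3 genes in each library, and for Bnip3 and Eno2 in both. The class with the highest level was the same in both libraries for 21 genes. In the wild-type library the interval of the first class stood clear of the second for 18 genes, and in the Malat1-null library for 11, so many neighbours in these orders do not differ beyond counting error.

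Ldha, the lactate-forming enzyme gene, ranged widely. It was at 763 CPM in T or NK-like, 634 CPM in mesenchymal-like and 564 CPM in B cell-like wild-type cells, against 15.1 CPM in beta-like and 3.51 CPM in the Sst-led cells. Slc2a1 was highest in endothelial-like cells, at 103 and 54.7 CPM. Hk1 was also highest there, at 93.8 and 58.7 CPM, and Hk2 was highest in mesenchymal-like cells, at 23.8 and 143 CPM. In these classes the genes that beta cells keep low were well above the beta-like level. Gapdh was highest in T or NK-like cells, at 2890 and 2368 CPM.

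In the hypoxia group Hif1a was highest in T or NK-like cells, at 739 and 906 CPM, where Egln3 was also highest, at 80 and 31.4 CPM. Adm was highest in endothelial-like cells, at 55.4 and 34.8 CPM, which also had the highest wild-type level of Slc16a3, at 102 CPM. Higd1a, whose protein sits in the inner mitochondrial membrane, separated the endocrine classes. It was highest in alpha-like cells, at 394 and 350 CPM, and lowest of all classes in beta-like cells, at 2.19 and 0.595 CPM. Bnip3 had the reverse order, at 179 and 91 CPM in beta-like and 78.1 and 30.5 CPM in alpha-like cells. Ndrg1 and Ddit4 were highest in acinar-like cells of both libraries, Ndrg1 at 229 and 156 CPM.

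**Figure D2:**
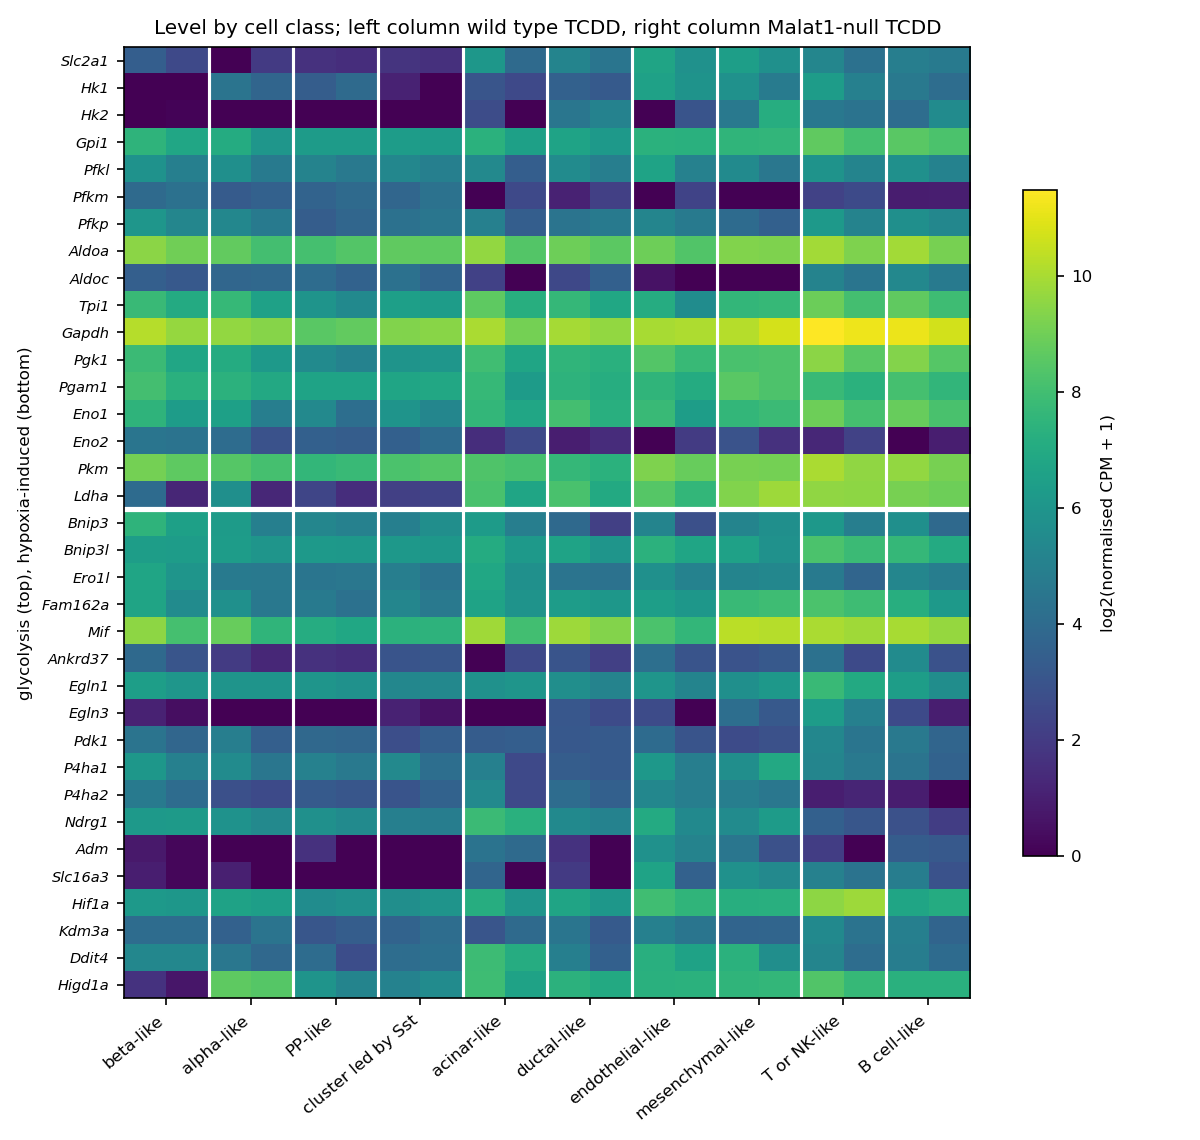
Level of each gene in 10 cell groups as log2(normalised CPM + 1), with the wild-type TCDD library in the left and the Malat1-null TCDD library in the right column of each group; glycolysis genes are above and hypoxia-induced genes below. Ldha, Hk1, Hk2 and Higd1a are lower in the beta-like columns than in those of T or NK-like cells.

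Other classes shared the lower level in the Malat1-null library, although all values come from the same 2 libraries and the classes are not independent. In B cell-like cells 16 of 29 measured genes were lower and 1 higher, against 6.16% and 9.15% of all measured genes. That class joined a cluster led by Cd79a (162 and 233 cells, median 5249 UMIs) with a deeper cluster (19 and 29 cells, median 32223 UMIs). The deeper cluster was led by Ighg1, with Top2a and Mki67 among its leading genes. The part of each cluster in the levels and ratios of the class was not tested. In T or NK-like cells 17 of 29 were lower (background 6.65%) and 0 higher (4.73%). In endothelial-like cells 17 of 28 were lower (background 10.8%) and 0 higher (7.41%). In alpha-like cells 11 of 21 were lower (background 4.17%) and 0 higher (5.52%). In acinar-like cells 14 of 17 were lower and 0 higher, but there 36.2% of all genes were lower and 5.87% higher, and the median of all genes was -0.49. In ductal-like cells 7 of 23 were lower (background 8.7%) and 0 higher (6.81%).

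The list did not show this in every group. In PP-like cells 1 of 14 measured genes was lower (background 4.48%) and 0 higher (3.63%), and in the Sst-led cluster 2 of 20 were lower and 1 higher (backgrounds 3.74% and 5.17%). In mesenchymal-like cells 2 of 21 were lower and 3 higher, with backgrounds of 12.4% and 14.3%. The median over measured genes was below -0.6 in 6 of the 10 groups, and it was 0.06 in mesenchymal-like cells and -0.01 in the Sst-led cluster. Cell numbers in these groups were small, 25 and 17 for mesenchymal-like cells, and the difference between groups was not tested.

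Some genes were lower in most groups and others in almost none. Eno1 was lower in 8 of the 10 groups, Tpi1 in 7 and Pgk1 in 6, with Eno1 ratios from 0.316 in alpha-like to 0.642 in B cell-like cells among those called. Pkm was called in 0 of 10 groups and Gapdh in 1, acinar-like cells. Ldha differed between classes. Its ratio was 0.979 in T or NK-like cells (interval 0.889 to 1.08) and 0.878 in B cell-like cells, but 0.426 in ductal-like and 0.558 in endothelial-like cells. In alpha-like cells it was 53 UMIs against 2, a ratio of 0.0277 with an interval from 0.00327 to 0.105, and both levels (52.4 and 1.45 CPM) were under those of empty droplets. Ddit4, level in beta-like cells, was lower in 6 other groups.

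Between beta-like cells many of the genes varied together. Cells with at least 20000 UMIs were thinned to that number, which left 874 wild-type and 1656 Malat1-null cells, and 16 genes with a mean of at least 0.5 thinned UMIs in both libraries. Over their 120 pairs the median Pearson r of log2(thinned UMIs + 1) was 0.395 in the wild-type and 0.124 in the Malat1-null library, against 0.0405 and 0.0374 over all pairs of 2992 genes. The lowest pair was above 0 in both. Without hormone, mitochondrial and Malat1 UMIs, and with 5000 UMIs left per cell, the median over the 14 genes that kept the minimum was 0.327 and 0.036, against 0.00139 and 0.000812 over all pairs of 1971 genes. In the wild-type library 73 pairs reached 0.3, and in the Malat1-null library 6. These r values describe cells of 1 library each, which share a sequencing run and culture, and sparse counts pull r toward 0.

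Aldoa with Gapdh had the highest r of all pairs, 0.70 and 0.43. The other pairs at or above 0.3 in both libraries were Aldoa with Mif (0.64 and 0.39), Pgk1 with Mif (0.67 and 0.38), Gapdh with Mif (0.68 and 0.36), Gapdh with Pkm (0.63 and 0.32) and Gapdh with Eno1 (0.60 and 0.31). These 6 pairs are 5% of the member pairs, and 0.0585% of all gene pairs met the same limit. Mif, the cytokine gene, thus varied with glycolytic enzymes rather than apart from them.

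The strength of this differed between genes. With the mean of the other 15, r was 0.78 and 0.52 for Gapdh, 0.77 and 0.51 for Mif, 0.74 and 0.42 for Pgk1 and 0.71 and 0.35 for Bnip3. For Hif1a it was 0.12 and 0.18, for Ndrg1 0.16 and 0.18, for Bnip3l 0.37 and 0.14, and for Egln1 0.40 and 0.13. Hif1a, Ndrg1, Bnip3l and Egln1 had means near 1 thinned UMI or less, and weak values at so few counts are not read as independence. Fam162a, with means of 1.26 and 0.514, nevertheless reached 0.67 and 0.29.

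**Figure D3:**
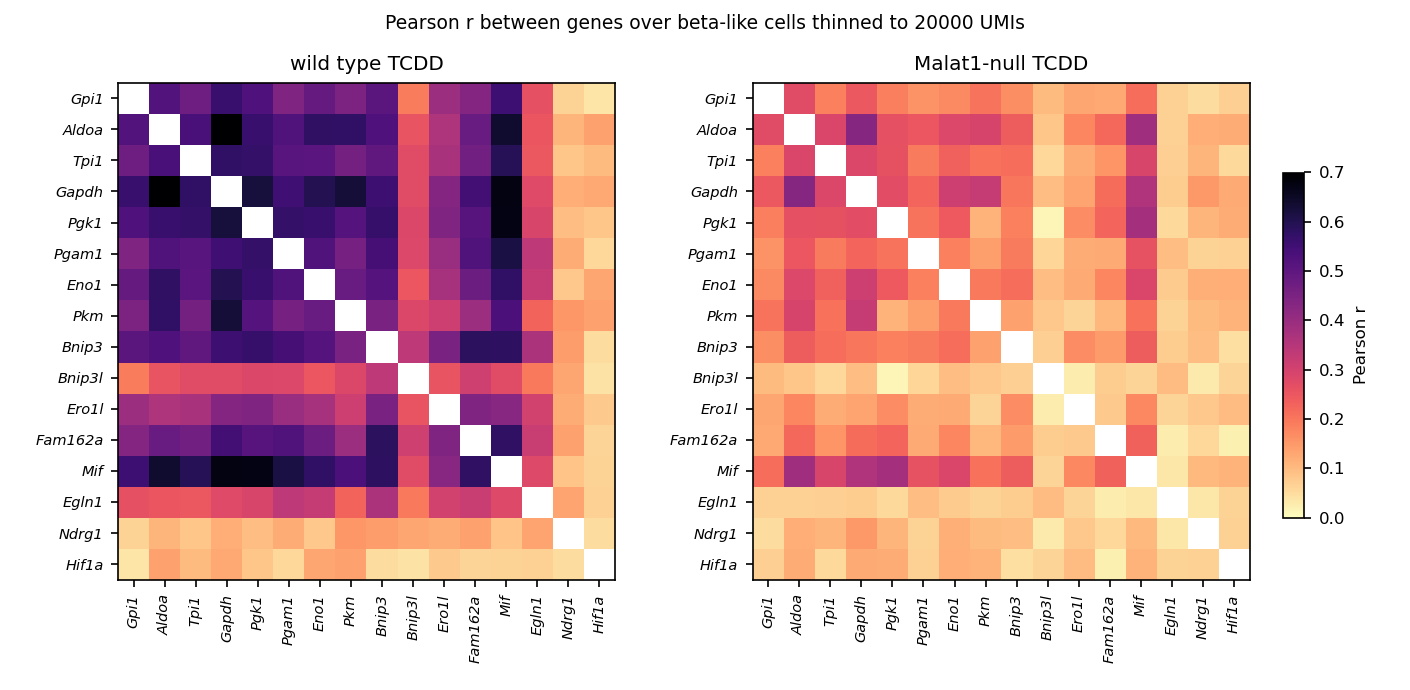
Pearson r between each pair of the 16 genes over beta-like cells thinned to 20000 UMIs, wild-type TCDD on the left and Malat1-null TCDD on the right, on a common colour scale from 0 to 0.7. The wild-type panel is darker, with a median of 0.395 against 0.124, and the rows of Hif1a and Ndrg1 are pale in both.

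Outside the list, genes whose level followed the mean of the 16 most closely in both libraries were Ftl1 (0.35 and 0.39), Igf1r (0.34 and 0.35), Eif1, Gsdma, Pam, Fau, Ubr4, Eif4ebp1, Cd63 and Ctsb. The median over all genes was 0.05 and 0.09. Vegfa reached 0.16 and 0.18. The mean of the 16 went down as the insulin share of a cell's UMIs went up (r of -0.32 and -0.52), and it was unrelated to the cell's depth (-0.01 and -0.06). Insulin took a median of 51.0% and 58.8% of the fixed 20000 UMIs, so a larger share leaves fewer UMIs for all other genes. The r with insulin is partly set by this, and nothing is read from it.

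The spread between cells was itself unequal. The Fano factor, the variance over the mean of the thinned UMIs, was above the median of 100 genes of like level for all 16 genes in both libraries, and it was higher in the wild-type library for all 16. The median of the genes of like level was also higher in the wild-type library for all 16, ranging from 1.18 to 2.62 against 1.09 to 1.92. So was the mean of each of the 16. The higher wild-type value is thus not particular to these genes. For Mif it was 15.3 and 5.90, for Gapdh 14.5 and 3.08, for Bnip3 7.28 and 2.32 and for Ero1l 10.7 and 1.61. Mif had a median of 5 and a 90th percentile of 23 thinned UMIs in wild-type cells, against 2 and 6 in Malat1-null cells. Gapdh had 10 and 32 against 8 and 15. The libraries therefore lay closer at the median cell than at the 90th percentile.

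The sum of the 16 genes gave the same picture. It had a median of 42 UMIs per 20000 in wild-type cells and 31 in Malat1-null cells, and a 90th percentile of 133.7 against 48. These sums carry no TMM scaling, and the larger insulin share of Malat1-null cells leaves fewer UMIs for the 16 genes. Without hormone, mitochondrial and Malat1 UMIs, at 5000 UMIs per cell, the medians lay closer, at 25 and 22, and the 90th percentiles were 87 and 33. At 20000 UMIs with all genes, a sum of at least 100 was found in 130 of 874 wild-type cells (14.9%, with 12.6% to 17.4% as its exact binomial bounds). In the Malat1-null library it was found in 34 of 1656 (2.05%, bounds 1.43% to 2.86%). The limit of 100 was set after seeing the data and marks a range, not a cell type. Between 80 and 120 lay 59 and 35 cells. Before thinning, cells at or above the limit had a median depth of 66610.5 against 61583 UMIs below it in the wild-type library, and 48622.5 against 49719.5 in the Malat1-null library. Their insulin share was 48.9% against 50.7% in the wild-type and 51.4% against 58.4% in the Malat1-null library.

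**Figure D4:**
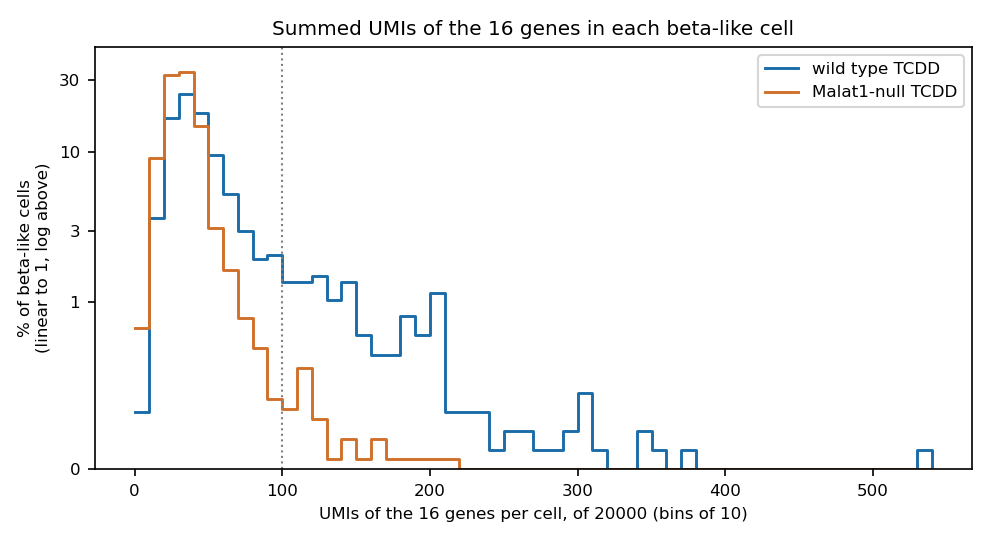
Share of beta-like cells of each library (vertical axis, linear to 1% and logarithmic above) by the summed UMIs of the 16 genes in 20000 UMIs of the cell, in bins of 10, with a dotted line at 100. The wild-type curve has a long right tail, with 14.9% of cells at or above 100, and the Malat1-null curve has 2.05%.

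Cells in this range made up 20.4% of the cells of the cluster led by Pdyn (73 of 357), 16% of that led by Snhg11 (42 of 263), 10.5% of that led by Igf1r (6 of 57), 5.56% of that led by Glul (1 of 18), 5.13% of that led by Hspa1a (6 of 117) and 3.23% of that led by Slc2a2 (2 of 62) in the wild-type library. In the Malat1-null library the shares, in the same order, were 3.14% (16 of 510), 1.52% (3 of 198), 3.92% (14 of 357), 0 (of 5), 0 (of 82) and 0.202% (1 of 496). Markers of the other 14 cell types were lower in sum in this range for 12 of the 14 lists in the wild-type library and higher for 1, endothelial (4.62 against 4.44 CPM of thinned UMIs). The PP list stood at 223 against 582 and the acinar list at 135 against 203 there. As medians over cells, however, the PP list was at 4 against 3 thinned UMIs and the acinar list at 1 against 1. These sums therefore do not describe the median cell. Among Malat1-null cells 9 lists were lower and 4 higher, among them alpha (122 against 75) and ductal (300 against 255.3), while acinar was at 7.35 against 28.9. Medians over these cells were 2 against 1 thinned UMIs for alpha, 4 against 5 for ductal and 0 against 0 for acinar. The part of these markers in the result was not tested.

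Genes of the list that are not in the sum did not enter the limit. They were listed with earlier results of these data known, so the counts below are a description and not independent support. Of 13 such genes with at least 50 UMIs over both ranges in the wild-type library, 9 were at least 2-fold higher in cells at or above the limit and 0 lower, while 0.951% of 9881 genes were higher and 2.43% lower. Ldha and Slc2a1, with 28 and 36 UMIs below the limit, reached that minimum only through the upper range, and both are among the 9. In the Malat1-null library it was 8 of 12 and 0, while 5.86% of 10625 genes were higher and 9.61% lower. Pfkl was at 138 against 20.6 CPM of thinned UMIs (without TMM scaling) in the wild-type and 115 against 15.2 in the Malat1-null library. P4ha1 was at 129 against 28.0 and at 70.6 against 15.6, and Pfkp at 126 against 28.2 and at 106 against 20.4.

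Of the genes that beta cells keep low, some were higher there and others were not detected. Ldha was at 47.3 against 1.88 CPM of thinned UMIs in the wild-type library, 25.1-fold, from 123 UMIs in 36 of 130 cells against 28 UMIs in the 744 other cells. In the Malat1-null library it was at 11.8 against 0.401, but its 8 UMIs lay in 2 of the 34 cells. Hk1 had 0 UMIs in both ranges of both libraries, and Hk2 had 1 and 0 UMIs in the upper range. Slc2a1 was at 26.5 against 2.42 and at 16.2 against 2.1. The hypoxia genes Pdk1 (35.8 against 9.74) and P4ha2 (54.2 against 8) were higher as well in wild-type cells. From the list of 26 other factor targets 15 had at least 50 UMIs in the wild-type library, and 3 of them were at least 2-fold higher (Gys1, Pgm1 and Hmox1) and 0 lower. Among Malat1-null cells 4 of 16 were higher (Plod1, Gys1, Pgm1 and Hmox1) and 1 lower (Mxi1). Gys1, glycogen synthase, was at 32.7 against 3.97 and at 8.82 against 3.27, the latter from 6 UMIs in the upper range.

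Other genes of the list differed by less than 1.5-fold in the wild-type library. Pfkm was at 7.31 against 9.61 CPM of thinned UMIs, Eno2 at 14.6 against 14.0, Ddit4 at 27.3 against 25 and Kdm3a at 12.3 against 10.4. Among Malat1-null cells Kdm3a was at 17.6 against 8.2, 2.15-fold higher, and Ddit4 at 13.2 against 20.4, with 12 and 9 UMIs in the upper range. These 4 genes also differed by less than 1.5-fold between the libraries. Vegfa was at 231 against 204.

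**Figure D5:**
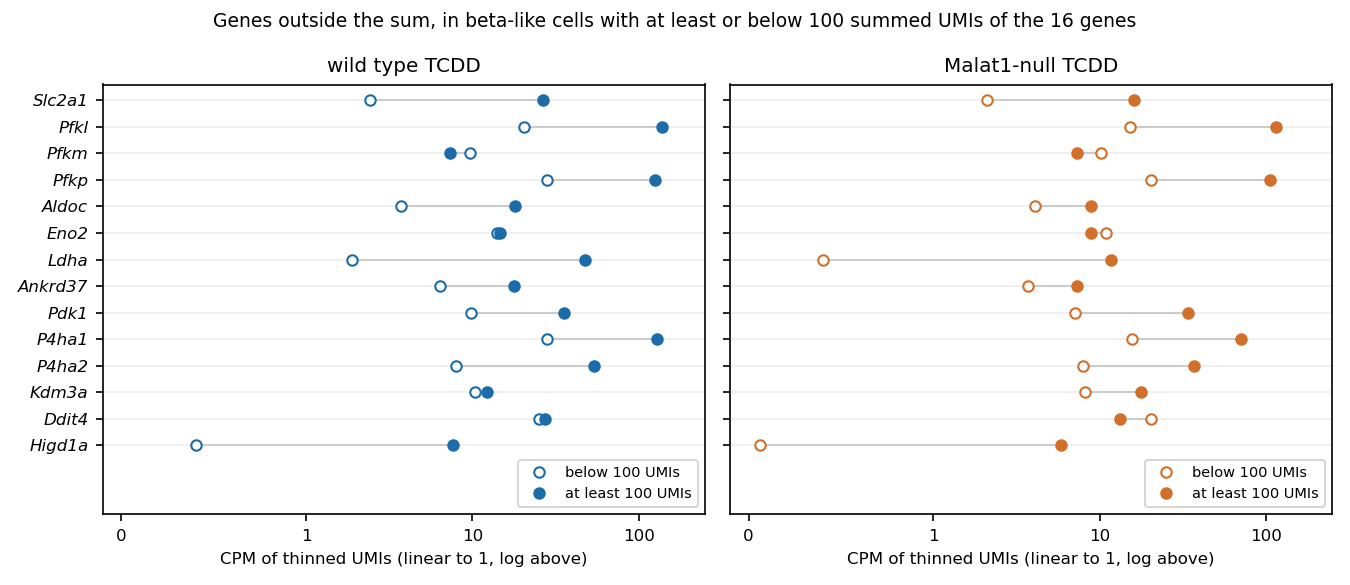
Level of the genes outside the sum that had at least 20 UMIs in total, as CPM of thinned UMIs, in beta-like cells with at least 100 (filled) and below 100 (open) summed UMIs of the 16 genes, for each library; the axis is linear to 1 and logarithmic above. Ldha, Slc2a1, Pfkl and P4ha1 lie far apart in both panels, and Pfkm, Eno2 and Ddit4 do not lie to the right in the cells of the upper range by more than 1.1-fold in either.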

How the data were processed

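Single-cell 3′ RNA libraries of islets from 2 genotypes, each 1 library treated with TCDD, were used of 4 samples. Unfiltered UMI counts per gene and barcode were used as deposited by the authors; the file headers name Cell Ranger 4, whereas the submitters' processing notes name Cell Ranger 2.1.0 and mm10. Barcodes with at least 1000 UMIs were clustered together in scanpy 1.11.5 on Python 3.11.15 (2000 variable genes without the listed genes, Malat1, sex-linked or mitochondrial genes, 30 components, 15 neighbours, Leiden resolution 1, and 0.5 for the split of clusters). Clusters were named from 15 marker lists (score of at least 0.6, at least 3 markers at 20 CPM or more), and clusters where a second hormone reached 10% of its highest cluster level stayed unnamed. These limits were adjusted once an initial clustering had been inspected. Scrublet called 23 (1.06%) and 7 (0.219%) barcodes, 3 and 1 of them beta-like, and they were kept. Counts were summed per class and library and scaled with TMM factors of edgeR 4.0.16 in R 4.3.3. Ratios carry exact conditional intervals and levels exact Poisson intervals at 95%. DESeq2 1.42.0 gave alternative size factors. On simulated data 100% of genes changed 2-fold or 3-fold were recovered and 0 of 3625 unchanged genes were called. The simulation held counting error only, and its changed genes were taken from above the 20 CPM minimum. It checks the computation and gives no rate of false calls between libraries without replicates. Genes in beta-like cells with at least 20 CPM were given their values and the others their range. Gene members and lists were chosen with earlier results of these data known.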

Additional observations from a re-analysis of the deposited data

Results flagged for a closer look

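In 3 cases a gene was higher in the Malat1-null library in 1 cell group and lower in others, and in each the difference between groups was not tested. Bnip3, the mitophagy receptor gene, had a ratio of Malat1-null to wild type of 1.63 in the unnamed cluster led by Sst (26 and 100 UMIs, interval 1.05 to 2.62), while it was lower in B cell-like, T or NK-like, alpha-like, beta-like and endothelial-like cells. P4ha1, the collagen prolyl hydroxylase gene, had a ratio of 2.40 in mesenchymal-like cells (30 and 59 UMIs, interval 1.52 to 3.86), while it was lower in B cell-like, alpha-like, beta-like, endothelial-like and Sst-led cells. Ndrg1 had a ratio of 1.72 in mesenchymal-like cells (27 and 38 UMIs, interval 1.02 to 2.92) and was lower in endothelial-like cells.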

How the results depend on the processing

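The count of 14 lower genes in beta-like cells was between 12 and 19 under the alternatives other than single clusters, and it was 4 in the cluster led by Slc2a2, 5 in that led by Igf1r and 9 in that led by Hspa1a. The count of higher genes was 1 in the first 2 of these clusters and 0 under the 15 other alternatives. Shares of all genes lower under each alternative are not given here, so these counts show only how far the number moved. Of the 14 genes, Eno1, Fam162a and Mif met the rule under all 17 alternatives, 12 had a ratio below 1 under all, and Pdk1 missed the rule under 11 and P4ha2 under 8. The median of -0.65 became -0.76 with barcodes of at least 10000 UMIs, -0.95 with total UMIs only (median of all genes -0.16), -0.77 with DESeq2 size factors, -0.78 with at least 50 CPM, -0.76 with no minimum, -0.76 with each library clustered alone, and -0.26, -0.94, -0.37 and -0.34 in the clusters led by Slc2a2, Pdyn, Igf1r and Hspa1a. Ratios crossed 1 for Eno2 (1.51) and P4ha2 (1.24) in the cluster led by Slc2a2 and for Ero1l (1.06) and P4ha2 (1.03) in that led by Hspa1a, and the uncalled Bnip3l (0.874 to 1.14), Ndrg1 (0.950 to 1.41), Hif1a (0.827 to 1.21) and Ddit4 (0.761 to 1.07) lay on both sides of 1 over the alternatives. The median r of 0.395 in wild-type cells became 0.286 with Spearman's rho, 0.632 with a mean of at least 2 thinned UMIs (4 genes), 0.159 and 0.301 within the clusters led by Slc2a2 and Snhg11, 0.465 with cells thinned to 10000 UMIs and 0.327 without hormone, mitochondrial and Malat1 UMIs. In Malat1-null cells 0.124 became 0.341 with a mean of at least 2, 0.066 within the cluster led by Slc2a2, 0.178 at 10000 UMIs and 0.036 without those UMIs. The share of cells in the upper range, with alternatives chosen after seeing the data, was 27.1% and 5.74% at a limit of 60 UMIs, 8.24% and 0.543% at 150, and 18.1% and 3.53% without those UMIs. Where a value moved, the cause was not tested. No paired analysis was possible because each genotype was 1 library.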

Other observations

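Genes outside the list were ranked by the smaller of their folds in both libraries, between beta-like cells with at least 100 summed UMIs of the 16 genes and the other beta-like cells, over genes with at least 50 UMIs in each library. The first 5, named after their values were seen, were Prelid2 (12.5-fold in the wild-type and 6.90-fold in the Malat1-null library), the secreted phosphoprotein gene Spp1 (4.32-fold and 14.8-fold), Pdyn (3.89-fold and 5.83-fold), Ttyh1 (3.52-fold and 4.85-fold) and Adm2 (3.48-fold and 6.08-fold). Prelid2 had 81 UMIs in the upper range and 37 below it in the wild-type library, so it reached the minimum there only through the upper range. Its Malat1-null fold rests on 11 UMIs in the upper range, and nothing is read from its first place. Ak4, from the list of other factor targets, was under that minimum, with 40 against 7 UMIs in the wild-type and 5 against 6 UMIs in the Malat1-null library. Of 10 beta-cell markers, 8 were lower and 2 higher in this range in the wild-type library, 0 of them by 2-fold. In the Malat1-null library 7 were lower and 3 higher, with Mafa (119 against 280 CPM of thinned UMIs), Slc2a2 (25 against 94.8) and Slc30a8 at least 2-fold lower, and Ucn3 at 154 against 128.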
